A study of Mus musculus with 48 samples.

Results

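Levels of 44 coagulation and complement genes, 22 of each, were followed through mouse livers after chronic and binge ethanol. The genes were taken from a fixed list of symbols, and the rows of the deposited gene table with those symbols were used. All 44 were among the 15041 genes of the table, and all 44 passed the filter on low values. The study asked how SHP, a nuclear receptor without a DNA-binding domain and the product of Nr0b2, relates to the clock repressor REV-ERBα and the CYP4A enzymes in liver injury from alcohol. The mice were labelled SHP knockout or wild-type C57BL/6. Ethanol mice drank a Lieber-DeCarli liquid diet with 5% ethanol over 10 days and received 5 g/kg ethanol at 9am on day 11. Control mice drank the maltose diet for the same time and received 9 g/kg maltose dextrin at that hour. Livers were collected at 6pm, 12am, 6am and 12pm after the dose. There were 3 mice in each of 16 groups, so that over the 4 times each arm had 12 livers: knockout-labelled ethanol, knockout-labelled control, wild-type ethanol and wild-type control. Age, sex, the targeted part of the gene and the tissues that lack it are not stated in the labels.

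Most circulating clotting and complement proteins are made and secreted by hepatocytes. In coagulation, a chain of zymogens, many of them dependent on vitamin K, activates thrombin, which cuts fibrinogen into fibrin; antithrombin, heparin cofactor II and the protein C system hold the chain back, and plasmin dissolves the clot. Complement starts from C1q bound to immune complexes, from lectins bound to sugars, or from the spontaneous turnover of C3, and ends in the pore built from C5b, C6, C7, C8 and C9. Fibrinogen and C3 are acute phase proteins, whose genes are transcribed more when interleukin 6 reaches the hepatocyte. C1q is the exception among the complement proteins described here, since macrophages, in liver the Kupffer cells, are its main source.

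Libraries held 9605636 to 19780144 reads in genes. Values are FPKM (reads per kilobase of gene, relative to the reads of the library) multiplied by a scale factor per library, called scaled FPKM below. Changes are differences of log2(scaled FPKM + 0.5) with their standard errors (SE). A gene is called, and said to rise or fall, where the limma adjusted p (Benjamini-Hochberg over 13765 tested genes) was under 0.05. Nr0b2 was read in every arm: its scaled FPKM was 3.32 to 25.5 (median 14.4) in knockout-labelled ethanol livers, 3.69 to 30 (median 20.6) in knockout-labelled controls, 4.12 to 27.5 (median 7.72) in wild-type ethanol livers and 6.56 to 39.6 (median 22.3) in wild-type controls. The ranges overlap, so genotype is taken from the label alone. Alb, the albumin gene and the defining marker of hepatocytes, had 30550 to 68850 scaled FPKM over the 48 libraries. A list of 20 acute phase genes set 4 livers apart by its mean log2 level, with 9.78 in the knockout-labelled ethanol liver of 12pm replicate 1, 9.65 in that of 6pm replicate 1, and 8.90 and 8.66 in the wild-type controls of 6pm replicates 0 and 2. The other livers of those knockout-labelled ethanol groups had 6.34 to 6.83. These were low for their arm: the list summed to 7506 to 10880 scaled FPKM in them. The median of all knockout-labelled ethanol livers was 16610, so the level also varied among the livers not set apart. Calls of single genes that are lost without the 2 knockout-labelled livers, or without the wild-type control of replicate 0, are named beside the gene.

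The 4 promoters shown here belong to the genes that rose most with ethanol in knockout-labelled livers, the 3 fibrinogen genes side by side on chromosome 3, and to the gene that fell most, the pore gene C6 on chromosome 15. Each is the 250 bases before the RefSeq start on GRCm38.p6, read on the strand of the gene. Capitals mark matches, on either strand, to CTGGGA (the core of the interleukin 6 response element), to GTTAAT (a half-site of the hepatocyte factor HNF1) or to TTGCNNAA (a C/EBP-type site). No 2 matches overlap in these 4 windows.
Fga, chr3:83025903-83026152, plus strand: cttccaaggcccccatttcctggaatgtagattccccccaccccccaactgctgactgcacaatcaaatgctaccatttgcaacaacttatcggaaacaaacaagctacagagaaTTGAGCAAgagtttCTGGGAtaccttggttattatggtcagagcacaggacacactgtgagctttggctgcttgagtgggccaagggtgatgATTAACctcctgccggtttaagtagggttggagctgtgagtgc
Fgb, chr3:83049864-83050113, minus strand: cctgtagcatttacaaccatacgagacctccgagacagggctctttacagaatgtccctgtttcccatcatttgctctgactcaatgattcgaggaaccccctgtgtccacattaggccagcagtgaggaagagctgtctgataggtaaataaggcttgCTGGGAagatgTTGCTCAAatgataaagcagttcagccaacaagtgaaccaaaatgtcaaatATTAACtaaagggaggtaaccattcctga
Fgg, chr3:83007474-83007723, plus strand: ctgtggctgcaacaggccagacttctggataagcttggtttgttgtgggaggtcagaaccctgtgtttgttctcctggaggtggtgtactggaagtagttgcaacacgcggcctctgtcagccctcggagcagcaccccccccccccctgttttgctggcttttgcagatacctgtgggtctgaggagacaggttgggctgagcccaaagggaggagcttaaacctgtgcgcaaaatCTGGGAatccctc
C6, chr15:4726960-4727209, plus strand: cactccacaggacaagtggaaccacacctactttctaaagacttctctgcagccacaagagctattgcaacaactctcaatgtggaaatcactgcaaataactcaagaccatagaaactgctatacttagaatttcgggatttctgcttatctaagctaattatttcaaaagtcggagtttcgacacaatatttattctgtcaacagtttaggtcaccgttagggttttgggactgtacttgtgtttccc
CTGGGA stood at position -121 in Fga, -91 in Fgb and -13 in Fgg, counted back from -1 at the base before the start. Fga and Fgb also held GTTAAT on the other strand (-43 and -29) and a TTGCNNAA match (-135 and -80). None of the 3 motifs was in the C6 window. Other pore genes held matches: TTGCNNAA in C9 (-132), CTGGGA and GTTAAT in C8a, and GTTAAT in C8b and Hc. Of 32851 mouse promoters of this length, 27.0% held CTGGGA, 6.43% held GTTAAT and 9.56% held TTGCNNAA. Promoters were found for 19 coagulation and 14 complement genes. CTGGGA was in 8 of the 19 and 5 of the 14, GTTAAT in 4 and 5, and TTGCNNAA in 6 and 2. A match describes the letters and is not evidence of binding.

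In wild-type controls the members spanned a wide range of levels. The fibrinogen β, γ and α genes stood highest, with medians of 2402 scaled FPKM for Fgb, 1688 for Fgg and 1424 for Fga (n = 12 each). C3, the protein on which the complement pathways meet, followed with 1108, then Serpinc1 (antithrombin) with 954.4 and Plg (plasminogen) with 799.6. The lowest medians belonged to Pros1 (protein S, a cofactor of activated protein C) with 16.8, C1qc (the C chain of C1q) with 20.1, Masp1 (a lectin pathway protease) with 28.2 and C2 (a component of the C3 convertase) with 28.5. The ranges of Fgg (1318 to 7695) and Fga (1128 to 9541) overlapped, as did those of Masp1 (23.8 to 36.6) and C2 (18.8 to 55.5). FPKM divides by gene length, so levels can be set side by side between genes, within the limit that the length rule of the authors is not stated in the labels.

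Coagulation genes rose with ethanol in knockout-labelled livers and mostly did not pass the test in wild-type livers. With the 4 times averaged, 17 of 22 rose and 0 fell in the knockout-labelled arm, where 31.6% of all tested genes were called (16.8% higher, 14.8% lower). In wild type 2 rose and 2 fell, where 30.3% of tested genes were called (16.6% higher, 13.7% lower). The median change was 0.37 over the 22 genes in the knockout-labelled arm against 0.00406 over all tested genes, and -0.07 in wild type against 0.00539. Without TMM scaling, on the deposited FPKM, the median of all genes moves by -0.203 in the knockout-labelled arm, and 11 coagulation genes rose and 2 fell there, with 1 and 3 in wild type. Over all tested genes 542 were then higher and 6759 lower in the knockout-labelled arm, against 2307 and 2041 with scaling, so changes are given relative to the median gene. The rises not called on the deposited FPKM were those of F5, F9, F10, Proc, Proz and Serpinc1.

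Fibrinogen, the soluble precursor of fibrin, is built from the products of Fga, Fgb and Fgg. Fga had 1496, 8962 and 2012 scaled FPKM in the knockout-labelled ethanol livers of 6pm, 1437, 5077 and 4502 at 12am, 3069, 2189 and 3075 at 6am, and 2003, 6591 and 1381 at 12pm. The knockout-labelled controls had 2244, 871.7 and 1422 at 6pm, 1304, 1134 and 1378 at 12am, 1329, 1071 and 1113 at 6am, and 996.1, 1183 and 1181 at 12pm. At 12am, 6am and 12pm every knockout-labelled ethanol liver lay above every control of its time, and at 6pm the groups overlapped. In wild-type ethanol livers Fga was 2032, 1811 and 2039 at 6pm, 1473, 1394 and 1107 at 12am, 1964, 1826 and 3398 at 6am, and 1276, 1863 and 1070 at 12pm. Wild-type controls had 9541, 1374 and 2605 at 6pm, 1324, 1384 and 1128 at 12am, 1697, 1608 and 1482 at 6am, and 1426, 1421 and 1233 at 12pm. The single highest value of Fga was in a wild-type control of 6pm, one of the livers with a high acute phase level, and the 2 highest ethanol values were in the knockout-labelled livers set apart above.

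**Figure D1:**
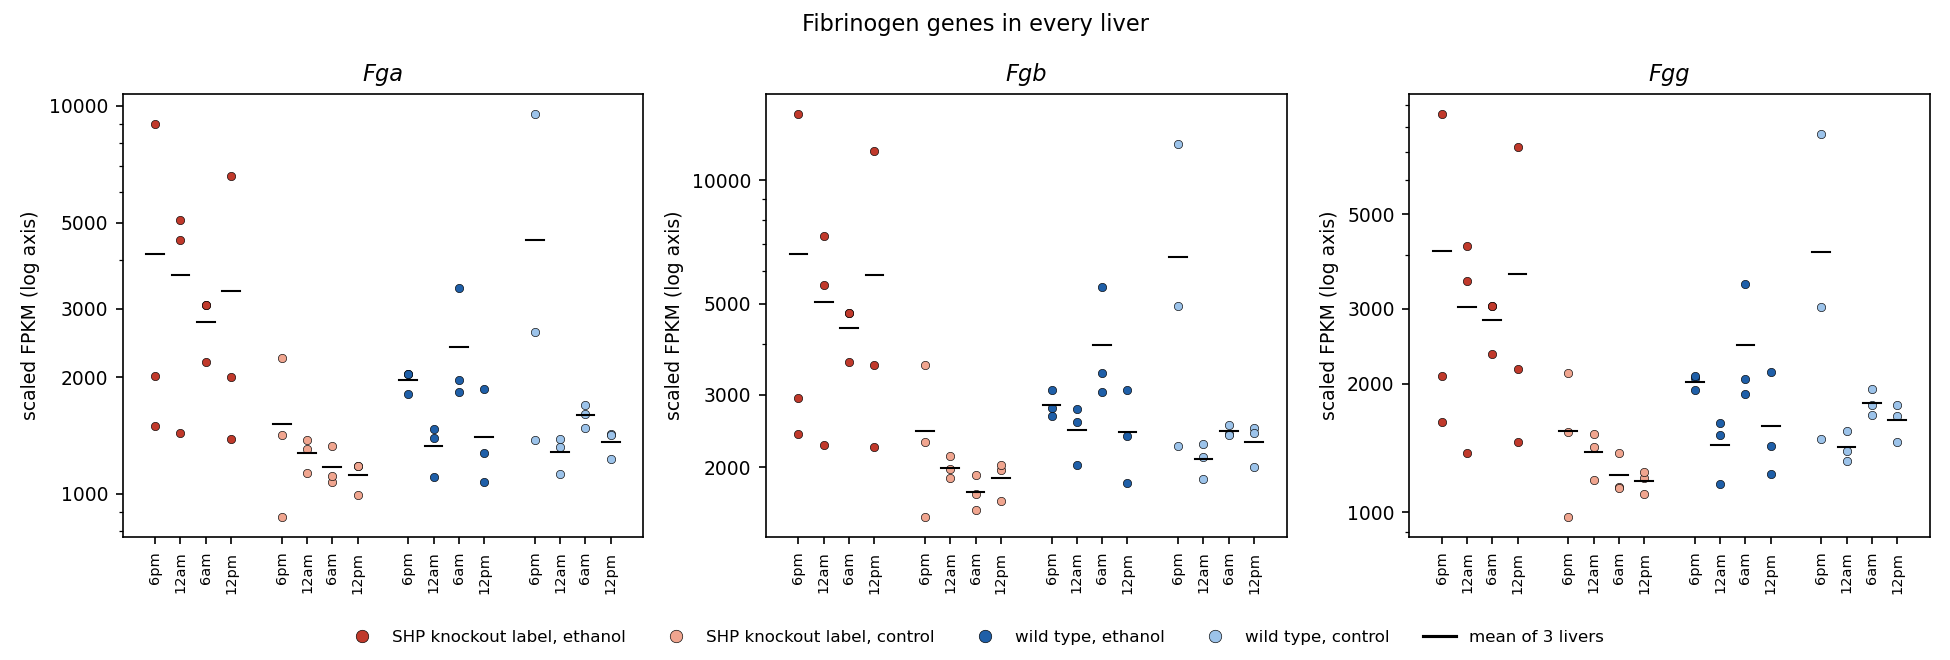
Scaled FPKM (log axis) of Fga, Fgb and Fgg in each of the 48 livers, by genotype label, treatment and time of day; points are livers and bars are means of 3. The highest points of the knockout-labelled ethanol livers (8962 for Fga) and of the wild-type controls (9541) are single livers, and the 3 genes follow each other from liver to liver.

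With ethanol Fga changed by 1.23 (SE 0.27, limma adjusted p = 0.00064) in the knockout-labelled arm and by -0.04 (SE 0.27, limma adjusted p = 0.938) in wild type. Fgb ranged from 2234 to 14530 (median 4182) in knockout-labelled ethanol livers and from 1512 to 3548 (median 1940) in their controls, a change of 1.20 (limma adjusted p = 0.000488). In wild type it ranged from 1833 to 5501 (median 2776) with ethanol and from 1876 to 12270 (median 2402) in controls, a change of 0.02. Fgg gave 1381 to 8593 (median 2701) and 976 to 2126 (median 1224) in the knockout-labelled arm, a change of 1.13 (limma adjusted p = 0.000585), and -0.09 in wild type. The 3 genes thus rose in 1 arm, and the ranges of ethanol and control livers overlapped in both. Without both knockout-labelled livers with the highest acute phase level all 3 were still called in that arm. Acute phase genes moved alongside: 13 of 20 rose and 1 fell with ethanol in the knockout-labelled arm, against 3 and 4 in wild type. Of all tested genes 31.6% were called in the knockout-labelled arm (16.8% higher, 14.8% lower). In wild type 30.3% were called (16.6% higher, 13.7% lower). The acute phase genes summed to 7506 to 121200 scaled FPKM in knockout-labelled ethanol livers and 5386 to 18460 in knockout-labelled controls. In wild type they summed to 6378 to 11320 with ethanol and 5571 to 59170 in controls. Saa1, a serum amyloid gene, ranged from 16.2 to 30920 and Saa2 from 18.0 to 37330 in knockout-labelled ethanol livers. Of 6 neutrophil markers 5 were in the table; their summed level was 2.57 to 243.5 scaled FPKM in knockout-labelled ethanol livers, 3.30 to 41.95 in knockout-labelled controls, 1.23 to 6.29 in wild-type ethanol livers and 1.18 to 15.3 in wild-type controls, and Cxcr2 was at 0 in some livers of each arm. Their part in the fibrinogen change was not tested. In bulk tissue fewer cells of a type and less RNA per cell cannot be told apart.

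The vitamin K-dependent zymogens moved less than fibrinogen and within a narrower spread. F2 encodes prothrombin. It had 301.7 to 579.1 (median 412.7) scaled FPKM in knockout-labelled ethanol livers and 266.4 to 426.6 (median 300) in knockout-labelled controls, ranges that overlap, and rose by 0.39 (SE 0.07, limma adjusted p = 3.07e-05). F7, whose product starts clotting together with tissue factor, had 46.5 to 118.7 (median 68.5) and 37.1 to 72.0 (median 40.3), and rose by 0.57 (SE 0.09, limma adjusted p = 1.24e-05). F10, which converts prothrombin, rose by 0.36, and F9, its activator in the intrinsic pathway, by 0.32. None of the 4 was called in wild type, where changes lay between -0.12 and -0.05. F5, the cofactor of factor X, was the member called in the same direction in both arms with nearly the same size, 0.32 in the knockout-labelled arm and 0.27 in wild type (limma adjusted p = 0.00896 and 0.0286). Neither F5 call held on the deposited FPKM, where the sizes differed, with 0.0659 in the knockout-labelled arm and 0.25 in wild type. The wild-type call of F5 was lost in 2 of 48 fits that left out 1 liver, with the larger p (0.0606 by limma, change 0.23) without the control of 6pm replicate 0 and the other without the ethanol liver of 6am replicate 1.

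Among the contact factors, Kng1 (high molecular weight kininogen and the precursor of bradykinin) and F12 (Hageman factor) rose in the knockout-labelled arm. Kng1 had 660.6 to 1978 (median 883.4) scaled FPKM with ethanol and 431.5 to 894.3 (median 522.4) in controls there, and rose by 0.74 (SE 0.12, limma adjusted p = 9.18e-06). F12 had 175.0 to 380.6 (median 260.7) and 160.7 to 259.7 (median 198.5), and rose by 0.39 (SE 0.07, limma adjusted p = 3.77e-05). F11, which activates factor IX, fell in wild type by 0.55 (SE 0.13, limma adjusted p = 0.00135), with 20.4 to 41.0 (median 32.4) in ethanol livers and 36.9 to 59.7 (median 47.9) in controls; the knockout-labelled change was -0.04 (-0.30 and called lower on the deposited FPKM). Klkb1 (prekallikrein) was not called in either arm, with -0.07 and -0.21, nor was F13b, which carries the enzyme that crosslinks fibrin, with 0.05 and -0.19 (the first was -0.20 and called lower on the deposited FPKM). Kng1 shares sequence with its neighbour Kng2, so the split of reads between them is uncertain.

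Of 5 anticoagulant genes, 3 rose in the knockout-labelled arm. Serpinc1 rose by 0.32 (limma adjusted p = 0.000591) in the knockout-labelled arm, with 677.5 to 1427 (median 1222) scaled FPKM in ethanol livers and 677.4 to 1167 (median 863.1) in controls; its exons overlap those of Zbtb37 on the other strand, and the kit does not mark strand. Proz, encoding protein Z, which helps to inhibit factor Xa, rose by 0.33 there. Serpind1 (heparin cofactor II) and Pros1 were not called in either arm, with changes of 0.24 and 0.10 in the knockout-labelled arm and 0.17 and -0.25 in wild type. Proc, the gene of protein C, was called in opposite directions in the 2 arms: it changed by 0.17 (SE 0.06, limma adjusted p = 0.0348) in the knockout-labelled arm and by -0.28 (SE 0.06, limma adjusted p = 0.00104) in wild type. In wild type it had 187.3 to 263.8 (median 217.9) scaled FPKM in ethanol livers and 225.3 to 303.3 (median 259.3) in controls, with overlap. The knockout-labelled call of Proc was lost in 11 of 48 fits that left out 1 liver, and without both knockout-labelled livers of high acute phase level it had 0.15 (limma adjusted p = 0.0927). Its sign turned to -0.0821 on the deposited FPKM.

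Serpinf2, Hrg and Plg, genes of fibrinolysis and its control, had the smallest p-values of the coagulation genes in the knockout-labelled arm. Serpinf2, encoding α2-antiplasmin, the main inhibitor of plasmin, rose in both arms: 360.9 to 811.3 (median 452.5) scaled FPKM in knockout-labelled ethanol livers against 240.6 to 386.2 (median 292.6) in their controls, a change of 0.81 (SE 0.10, limma adjusted p = 9.71e-08). In wild type it had 363.5 to 579.9 (median 436.7) with ethanol and 255.2 to 542.9 (median 316.6) in controls, a change of 0.44 (SE 0.10, limma adjusted p = 0.000607). Hrg, a histidine-rich plasma glycoprotein that binds plasminogen and heparin, had 501.9 to 1558 (median 701.1) with ethanol and 321.8 to 677.4 (median 419.2) in controls of the knockout-labelled arm, and rose by 0.84 (SE 0.12, limma adjusted p = 2.71e-06). Plg rose by 0.60 (SE 0.09, limma adjusted p = 3.03e-06), with 778.8 to 1780 (median 1032) and 587.3 to 957.5 (median 690.1). Cpb2, whose product removes plasminogen binding sites from fibrin, rose by 0.77 (SE 0.17, limma adjusted p = 0.00051), with 240.6 to 946.7 (median 292.2) and 167.7 to 277.8 (median 194.9). Ranges of ethanol and control livers overlapped for each of these. In wild type Hrg, Plg and Cpb2 were not called, with 0.10, 0.03 and -0.29. Without both knockout-labelled livers of high acute phase level Cpb2 was called lower there (limma adjusted p = 0.0212).

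**Figure D2:**
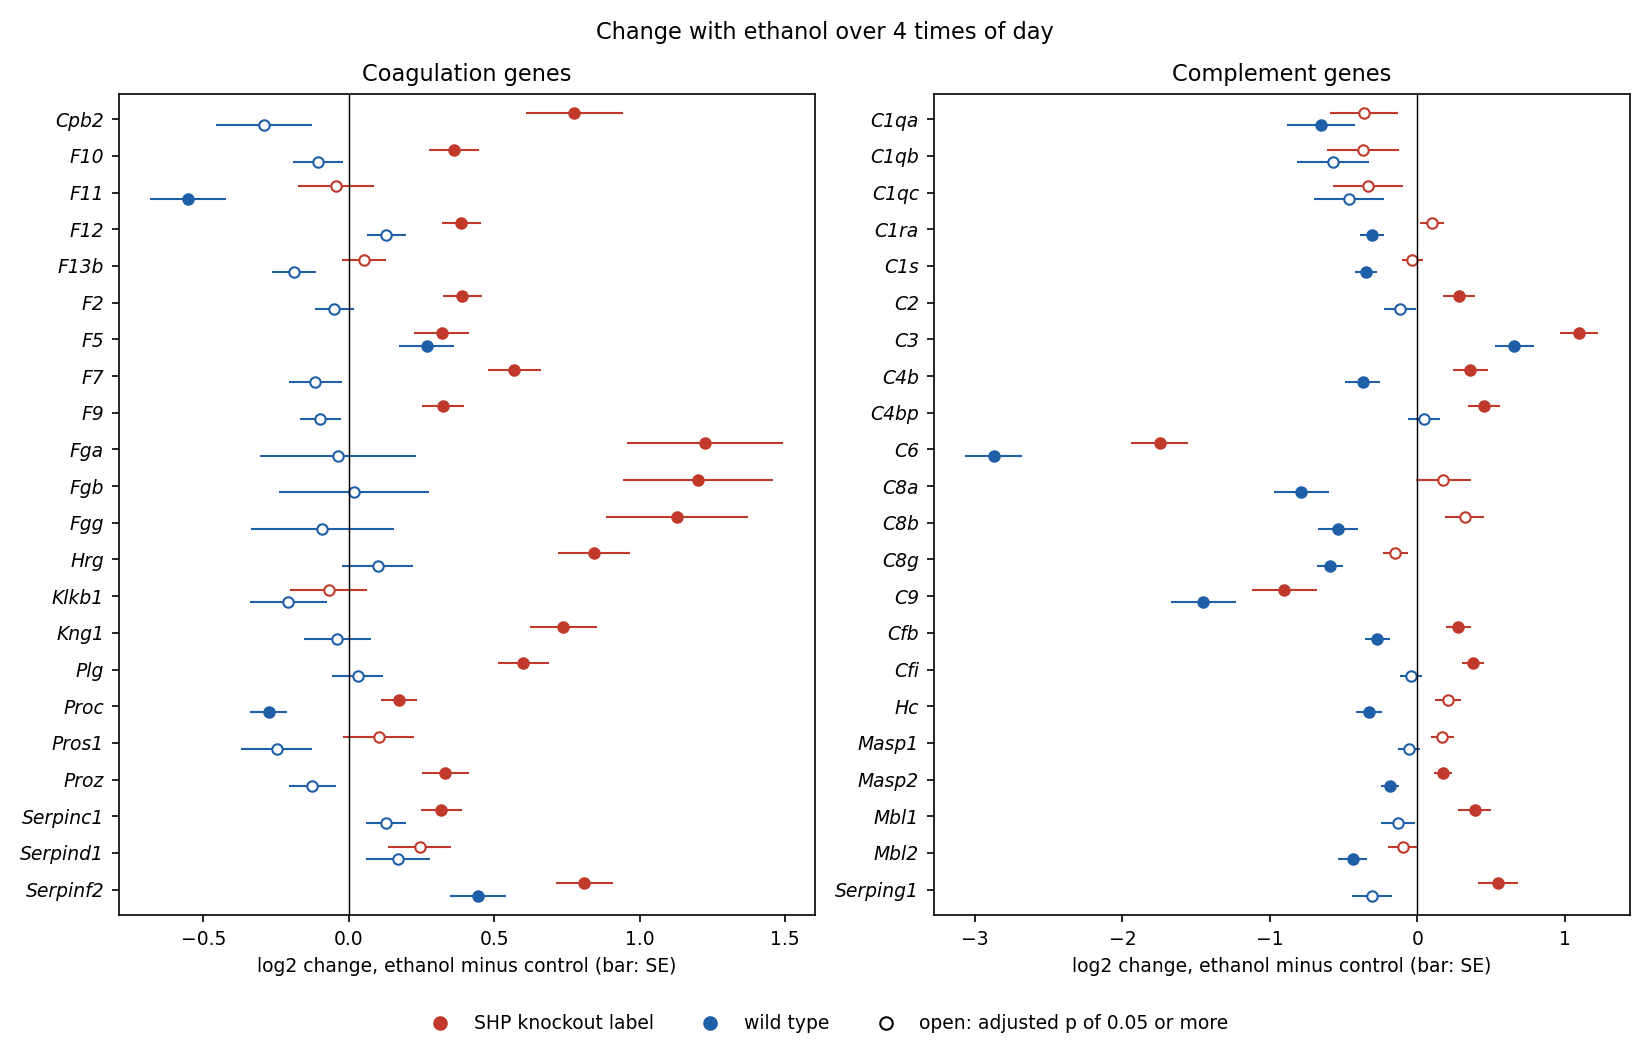
Change with ethanol (log2, ethanol minus control, mean of 4 times, with SE bars) of each coagulation gene (left) and complement gene (right) in knockout-labelled and in wild-type livers; filled points were called. Most coagulation genes lie to the right of 0 in the knockout-labelled arm, with Fga at 1.23, and C6 lies farthest to the left in both arms, at -1.75 and -2.87.

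Complement genes split by arm: in knockout-labelled livers 9 of 22 rose and 2 fell, and in wild-type livers 1 rose and 13 fell, against the background shares given above for these comparisons. The medians were 0.18 and -0.34, beside 0.00406 and 0.00539 over all tested genes. On the deposited FPKM 2 rose and 8 fell in the knockout-labelled arm and 1 and 13 in wild type, so the share of rises in the knockout-labelled arm depends on the scaling. Of the 9 rises, those of C3 and Serping1 were called there, and C1qa, C1qb, C1qc, C1s, C8g and Mbl2 were called lower in addition to C6 and C9. Without both knockout-labelled livers with the highest acute phase level, 4 rose and 4 fell there.

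C3 was the complement gene that rose in both arms. Knockout-labelled ethanol livers had 2977, 4916 and 2545 scaled FPKM at 6pm, 2754, 2592 and 2875 at 12am, 3733, 2710 and 3723 at 6am, and 2557, 5329 and 2493 at 12pm. Their controls had 1366, 1018 and 1555 at 6pm, 2012, 1611 and 1995 at 12am, 1133, 1342 and 1643 at 6am, and 1245, 1580 and 1553 at 12pm. The lowest of the 12 ethanol livers, 2493, lay above the highest control, 2012. In wild type C3 had 1510 to 2304 (median 1834) with ethanol and 704.3 to 2625 (median 1108) in controls, with overlap. The change was 1.10 (SE 0.13, limma adjusted p = 9.51e-08) in the knockout-labelled arm and 0.66 (SE 0.13, limma adjusted p = 0.000192) in wild type. C4b, a gene of C4, and Cfb (factor B, the protease of the alternative pathway convertase) took opposite directions in the arms. C4b changed by 0.36 (limma adjusted p = 0.0186) in the knockout-labelled arm and by -0.37 (limma adjusted p = 0.0164) in wild type, and Cfb by 0.28 (limma adjusted p = 0.0123) and -0.27 (limma adjusted p = 0.0153). C2 changed by 0.28 in the knockout-labelled arm, a call lost in 14 of 48 fits that left out 1 liver, and by -0.12, not called, in wild type. Without both knockout-labelled livers of high acute phase level C4b, Cfb and C2 had 0.19, 0.20 and 0.21 and were not called. C4b is nearly identical to C4a, and the exons of C2 and Cfb overlap the read-through gene Gm20547, so their separate levels are uncertain.

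**Figure D3:**
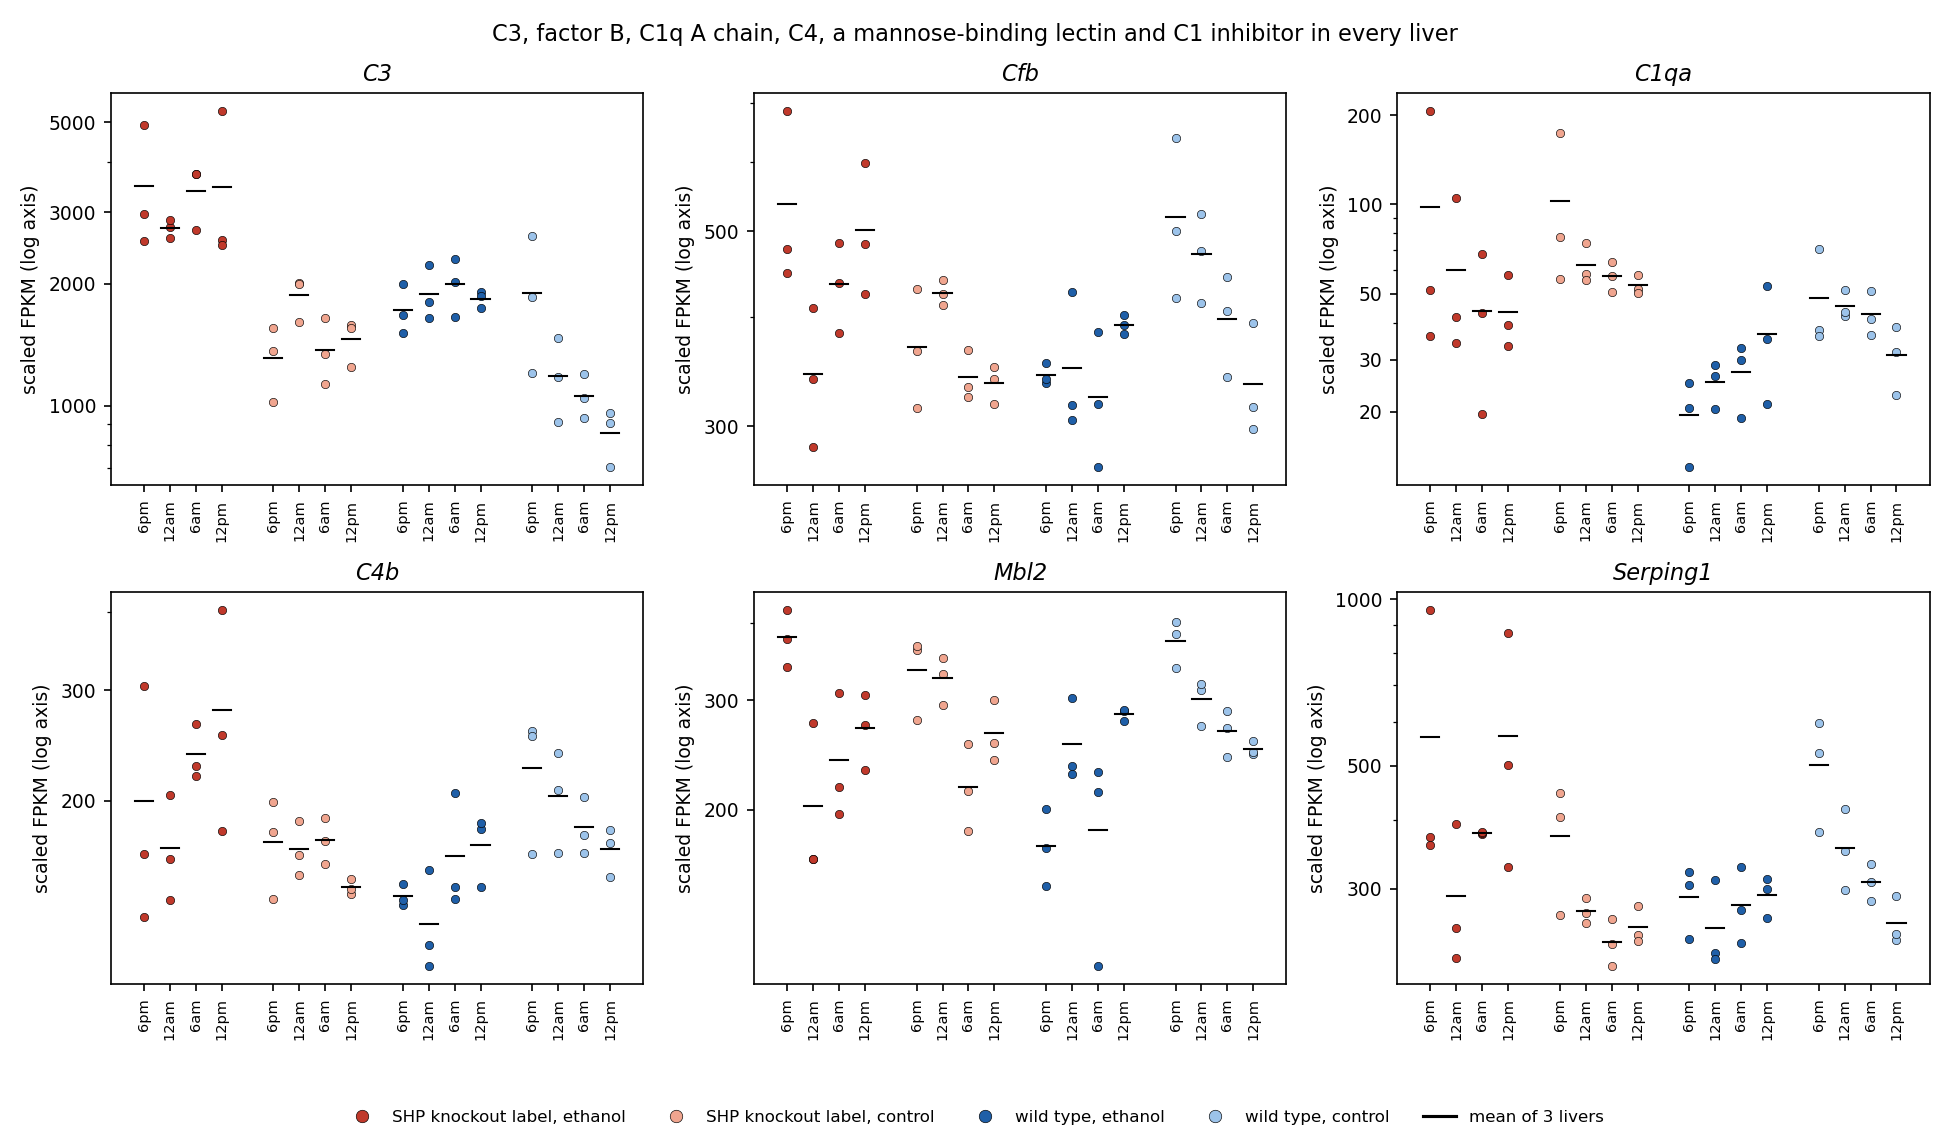
Scaled FPKM (log axis) of C3, Cfb, C1qa, C4b, Mbl2 and Serping1 in each of the 48 livers by genotype label, treatment and time; points are livers and bars are means of 3. In knockout-labelled mice the ethanol livers lie at 2493 to 5329 for C3, all above their controls at 1018 to 2012.

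Of the pore genes, C6 had the largest change with ethanol in both arms. Knockout-labelled ethanol livers had 6.57, 18.5 and 12.3 scaled FPKM of C6 at 6pm, 11.2, 8.32 and 8.66 at 12am, 16.9, 22.3 and 9.50 at 6am, and 15.2, 43.3 and 13.2 at 12pm. Knockout-labelled controls had 24.3, 43.4 and 55.1 at 6pm, 59.3, 43.2 and 35.4 at 12am, 75.6, 57.4 and 44.9 at 6am, and 38.6, 48.5 and 55.7 at 12pm. The arms overlapped through a single ethanol liver, the 43.3 of 12pm. In wild-type ethanol livers C6 was 16.3, 14.7 and 6.55 at 6pm, 6.75, 9.29 and 9.40 at 12am, 24.3, 11.9 and 12.8 at 6am, and 16.1, 18.0 and 8.91 at 12pm. Wild-type controls had 111.2, 92.5 and 125.5 at 6pm, 118.5, 107.1 and 99.8 at 12am, 106.0, 84.9 and 86.5 at 6am, and 93.9, 60.2 and 45.8 at 12pm. In wild type every ethanol liver lay below every control. C6 fell by 1.75 (SE 0.19, limma adjusted p = 3.99e-08) in the knockout-labelled arm and by 2.87 (SE 0.19, limma adjusted p = 2.35e-13) in wild type.

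C9, whose product polymerises into the wall of the pore, ranged from 16.04 to 177.1 (median 57.5) in knockout-labelled ethanol livers and from 73.9 to 141.7 (median 116.1) in their controls, a fall of 0.90 (SE 0.22, limma adjusted p = 0.00189). In wild type it ranged from 48.2 to 158.8 (median 95.4) with ethanol and from 171.0 to 425.4 (median 243.2) in controls, a fall of 1.45 (SE 0.22, limma adjusted p = 4.38e-06) with no overlap. The 3 chains of C8 fell in wild type and were not called in the knockout-labelled arm: C8a changed by -0.79 in wild type and 0.18 in the knockout-labelled arm, C8b by -0.54 and 0.32, and C8g by -0.59 (limma adjusted p = 2.54e-06) and -0.15. C8g had 81.8 to 150.8 (median 113.0) in wild-type ethanol livers and 151.5 to 190.7 (median 170.8) in wild-type controls, just apart. Hc, the mouse gene of C5, fell by 0.33 in wild type (limma adjusted p = 0.00408), and changed by 0.21, not called, in the knockout-labelled arm. Of these pore genes, 6 of 6 fell in wild type, and C6 and C9 fell also in knockout-labelled livers.

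**Figure D4:**
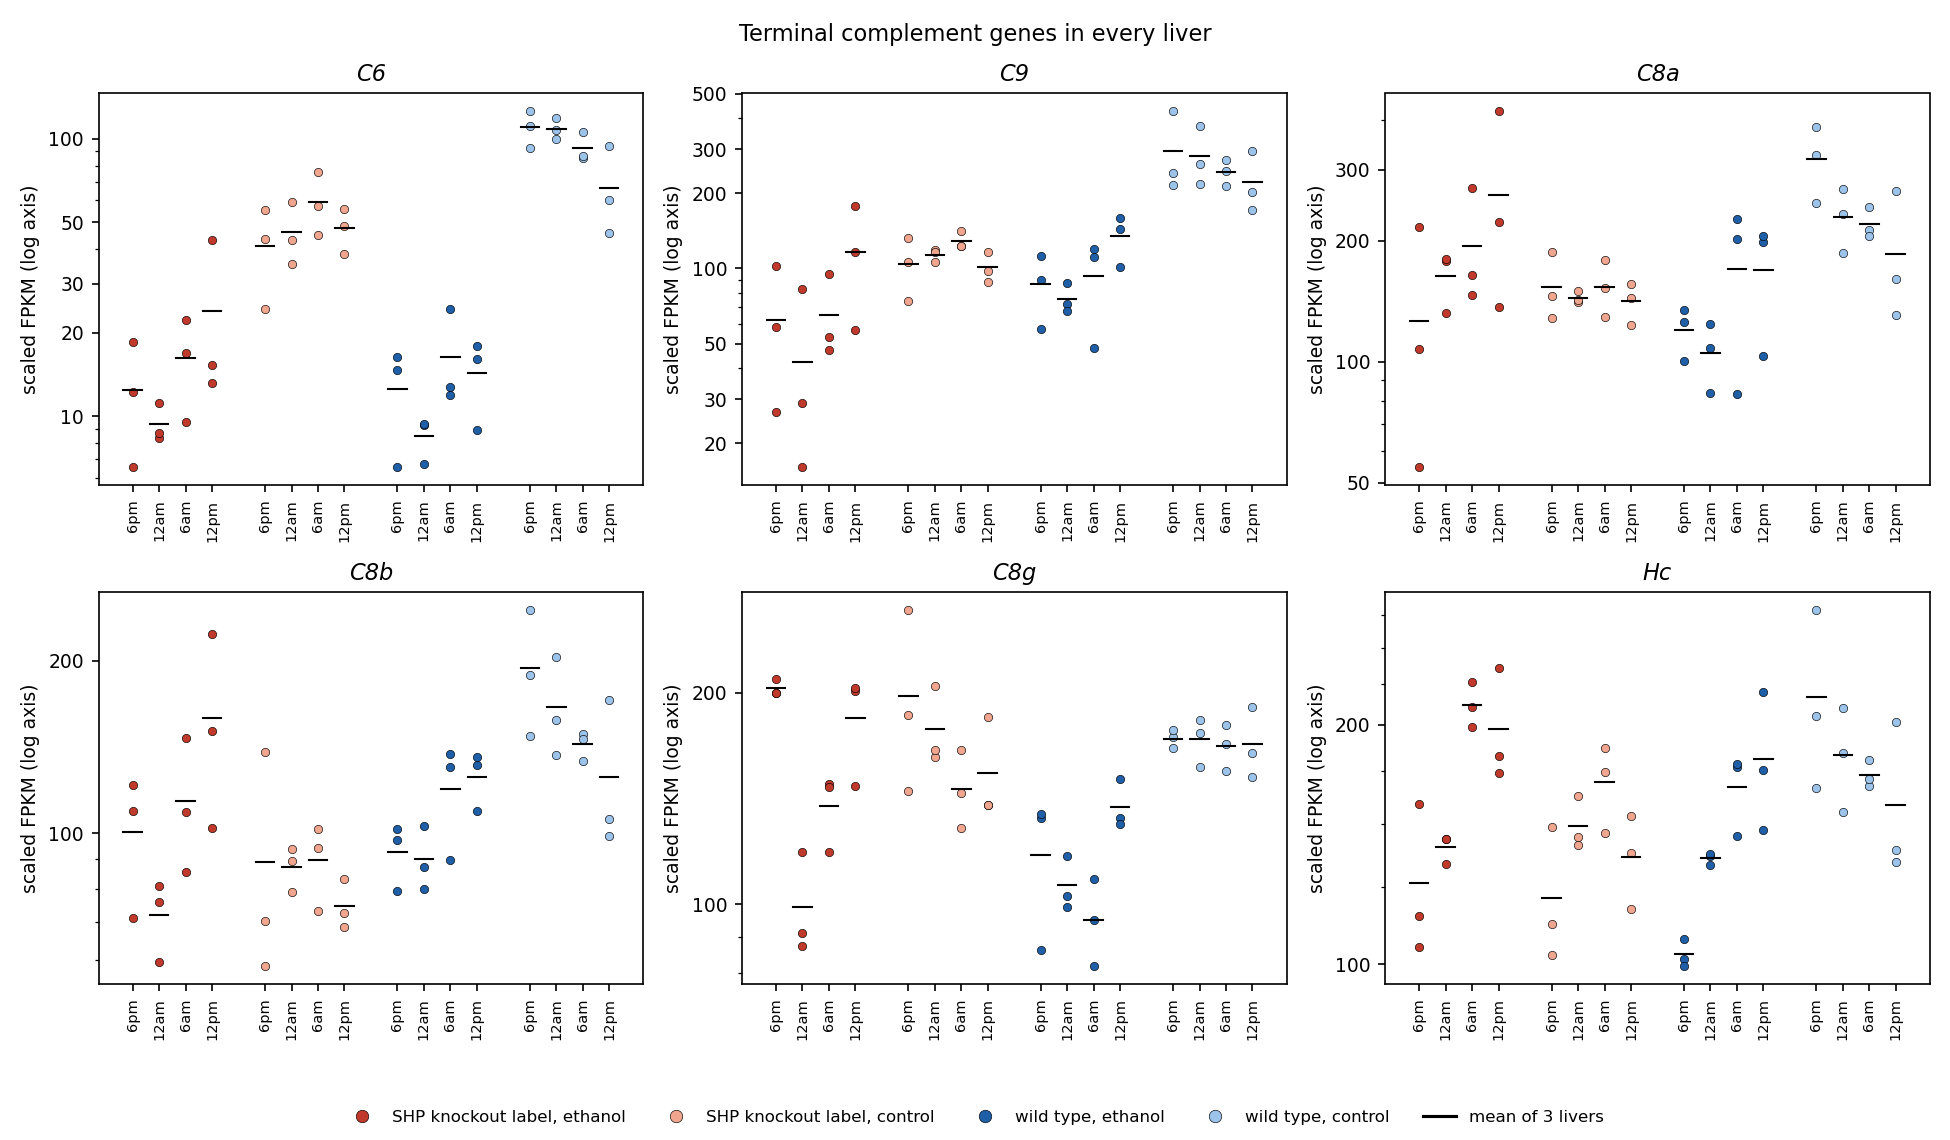
Scaled FPKM (log axis) of C6, C9, C8a, C8b, C8g and Hc in each of the 48 livers by genotype label, treatment and time; points are livers and bars are means of 3. Wild-type ethanol livers lie at 6.55 to 24.3 for C6, all below the wild-type controls at 45.8 to 125.5.

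The entry points and regulators follow. C1ra and C1s, the proteases of the C1 complex, fell in wild type by 0.31 and 0.35 (limma adjusted p = 0.00375 and 0.000409) and were not called in the knockout-labelled arm, with 0.10 and -0.03; near-identical copies of both genes exist in mice, so their counts are uncertain. Of the mannose-binding lectins, Mbl2 fell in wild type by 0.44 (SE 0.10, limma adjusted p = 0.000948), with 112.2 to 302.6 (median 229.1) scaled FPKM in ethanol livers and 243.3 to 401.8 (median 280.5) in controls, and Mbl1 rose in the knockout-labelled arm by 0.39 (limma adjusted p = 0.00846). That Mbl1 call was lost without both knockout-labelled livers of high acute phase level (0.25, limma adjusted p = 0.0591) and on the deposited FPKM (0.14). Masp2, the protease that cuts C4 for the lectins, changed by 0.17 in the knockout-labelled arm (-0.0798 on the deposited FPKM) and by -0.19 in wild type, both called, the first not without both livers of high acute phase level (0.14, limma adjusted p = 0.0855); its exons share sequence with Tardbp on the other strand. Masp1 was not called, with 0.17 and -0.06. Serping1 (C1 inhibitor), Cfi (factor I, which cuts C3b) and C4bp (its cofactor on C4b) rose in the knockout-labelled arm by 0.55, 0.38 and 0.46 (limma adjusted p = 0.00218, 0.000291 and 0.00163) and were not called in wild type, with -0.31, -0.04 and 0.05. C1qa fell in wild type by 0.65 (limma adjusted p = 0.0301), a call lost in 7 of 48 fits that left out 1 liver, and C1qb and C1qc had -0.57 and -0.46, not called. Without both knockout-labelled livers of high acute phase level Serping1 and C1qb were called lower in wild type (limma adjusted p = 0.013 and 0.036). In the knockout-labelled arm the 3 C1q genes had -0.36, -0.37 and -0.33 and were not called. Without both livers of high acute phase level C1qa and C1qb each had -0.60 and were called lower (limma adjusted p = 0.0283 and 0.0422), and on the deposited FPKM C1qa, C1qb and C1qc were called lower with -0.61, -0.62 and -0.58. Of 10 Kupffer cell markers, 5 fell and 1 rose with ethanol in wild type, and 3 fell and 1 rose in the knockout-labelled arm. Of all tested genes 13.7% fell and 16.6% rose in wild type, and 14.8% fell and 16.8% rose in the knockout-labelled arm.

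The ethanol effect itself differed between the labels for 13 coagulation and 12 complement genes, each with a higher (less negative or more positive) change in knockout-labelled livers; 8.01% of tested genes were called in this comparison (3.69% higher, 4.32% lower). Medians of the difference were 0.45 for coagulation and 0.43 for complement, beside -0.00302 over all tested genes. The smallest p among coagulation genes belonged to F7 (0.69, SE 0.13, limma adjusted p = 0.00112), Proc (0.45, SE 0.09, limma adjusted p = 0.002) and Kng1 (0.78, SE 0.16, limma adjusted p = 0.00307). Among complement genes it belonged to C8b (0.86, SE 0.19, limma adjusted p = 0.00405), Cfb (0.55, SE 0.12, limma adjusted p = 0.00423) and Serping1 (0.86, SE 0.19, limma adjusted p = 0.00483). For C6 the difference was 1.13 (SE 0.27, limma adjusted p = 0.00903), so that its fall was smaller in the knockout-labelled arm. C6, C8a, C8b and Hc were lower in knockout-labelled than in wild-type controls. None of them was called between labels among ethanol livers. For C3 (0.44), C9 (0.55), F5 (0.05) and Serpinf2 (0.37) the difference was not called. The differences of Fga (1.26, limma adjusted p = 0.034), Fgb (1.18, limma adjusted p = 0.0376) and Fgg (1.22, limma adjusted p = 0.0245) rest partly on single livers: without both knockout-labelled ethanol livers of high acute phase level, Fga had 0.90 (limma adjusted p = 0.0618) and Fgb 0.81 (limma adjusted p = 0.061). With the wild-type control of 6pm replicate 0 left out as well, Fga had 0.70 (limma adjusted p = 0.059) and Fgb 0.65 (limma adjusted p = 0.067); without that control alone Fgb had 1.03 (limma adjusted p = 0.0548). Between labels the 3 fibrinogen genes had -0.56 to -0.49 in controls, not called, and 0.66 to 0.77 among ethanol livers. The differences thus hold lower control values as well as higher ethanol values. Of 48 fits that left out 1 liver, 14 lost Fgb and 3 lost Fga. The largest p came without the knockout-labelled ethanol liver of 12am replicate 1 (limma adjusted p = 0.0555 for Fga, 0.0614 for Fgb and 0.0418 for Fgg). The Mbl1 difference (0.52) was lost in 25 of the 48, and had 0.38 without both knockout-labelled livers (limma adjusted p = 0.0802), 0.34 without the 3 livers and 0.48 without the wild-type control (limma adjusted p = 0.0577). On the deposited FPKM 10 coagulation and 6 complement genes were called, each with a higher change in knockout-labelled livers, where 193 of all tested genes were higher and 3635 lower, against 508 and 594 with scaling. The members not called there were F9, F10 and Proz, and C1ra, C8g, Cfi, Hc, Masp2 and Mbl1.

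In controls, more members of both systems were lower than higher under the knockout label. In knockout-labelled against wild-type controls 0 coagulation genes were higher and 6 lower, and 4 complement genes were higher and 10 lower, where 32.4% of tested genes were called (15.4% higher, 16.9% lower). Medians were -0.19 and -0.22, beside -0.0089 over all tested genes. On the deposited FPKM 1 coagulation gene was higher and 2 were lower, and over all tested genes 4135 were higher and 812 lower, against 2124 and 2333 with scaling. Without both knockout-labelled ethanol livers of high acute phase level, which enter through the shared estimate of spread, 10 coagulation genes were lower. Those added were Fgb (-0.50, limma adjusted p = 0.0362), Fgg (-0.56, limma adjusted p = 0.0175), Plg (-0.20) and Cpb2 (-0.33). With all livers kept the fibrinogen genes had -0.56 to -0.49 and were not called. F9 had 42.5 to 90.01 (median 66.2) scaled FPKM in knockout-labelled controls and 78.6 to 114.5 (median 87.6) in wild-type controls, a difference of -0.49 (SE 0.07, limma adjusted p = 4.02e-06). F13b had 48.3 to 85.3 (median 66.6) and 73.8 to 102.2 (median 88.5), a difference of -0.40 (limma adjusted p = 0.000141), and Proz -0.28 (limma adjusted p = 0.00693). F2, Klkb1 and Proc were also lower. The F2 call was lost in 15 of 48 fits that left out 1 liver, among them that without the wild-type control of 6pm replicate 0 (-0.16, limma adjusted p = 0.0686). Masp2 had 57.6 to 88.4 (median 68.3) in knockout-labelled and 87.5 to 114.3 (median 95.5) in wild-type controls, a difference of -0.49 (SE 0.06, limma adjusted p = 2.09e-07). C8b had 58.7 to 138.3 (median 81.1) and 98.9 to 245.1 (median 148.6), a difference of -0.87 (limma adjusted p = 8e-06). C9 had a difference of -1.19 (limma adjusted p = 0.000103) with no overlap between 73.9 to 141.7 and 171.0 to 425.4, C6 of -0.96, C8a of -0.64, C4bp of -0.53, Cfi and Hc of -0.34 each, Mbl1 of -0.30 and C1s of -0.22. The Mbl1 call was lost in 13 of 48 such fits (largest p without the same wild-type control, 0.0869 by limma) and the C1s call in 1. F2, Klkb1, Proc and Proz, and C1s, Hc and Mbl1, were not called on the deposited FPKM. C3 was higher in knockout-labelled controls by 0.34 (limma adjusted p = 0.0451), a call lost in 15 of 48 fits that left out 1 liver. Masp2, C8a and C8b lie on chromosome 4, as Nr0b2 does, at distances of 15.1, 28.7 and 28.8 Mb.

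The C1q genes ran the other way. C1qa had 50.2 to 174.8 (median 57.7) scaled FPKM in knockout-labelled controls and 22.9 to 70.6 (median 39.9) in wild-type controls, a difference of 0.66 (SE 0.23, limma adjusted p = 0.0262). With ethanol it had 19.6 to 206.1 (median 42.4) in knockout-labelled and 13.02 to 53.3 (median 25.7) in wild-type livers, a difference of 0.96 (SE 0.23, limma adjusted p = 0.00237). C1qb differed by 0.67 and 0.87 and C1qc by 0.74 and 0.87 in controls and ethanol livers, each called. In controls the C1qb call was lost in 7 of 48 fits that left out 1 liver, with the largest p without the knockout-labelled control of 6pm replicate 0 (0.56, limma adjusted p = 0.0811), and the C1qa call in 2. Without the wild-type control of 6pm replicate 0 C1qb had 0.62 (limma adjusted p = 0.0588). The 3 genes lie together on chromosome 4, 3.32 to 3.34 Mb from Nr0b2. Kupffer cell markers moved with them: 8 of 10 were higher in knockout-labelled controls and 10 of 10 in knockout-labelled ethanol livers, where 15.4% and 12.6% of all tested genes were higher. Their summed level was 99.0 to 892.7 scaled FPKM in knockout-labelled ethanol livers, 237.0 to 800.6 in knockout-labelled controls, 62.2 to 469.1 in wild-type ethanol livers and 100.4 to 361.7 in wild-type controls, and none of the 10 was at 0 in any liver. Their part in the C1q difference was not tested.

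Among ethanol livers, coagulation and complement genes were more often higher than lower in knockout-labelled mice: 12 coagulation genes were higher and 0 lower, and 10 complement genes were higher and 1 lower, where 28.3% of tested genes were called (12.6% higher, 15.8% lower). On the deposited FPKM 10 and 3 coagulation genes and 9 and 2 complement genes were called higher and lower, and 914 and 3615 of all tested genes, against 1730 and 2169 with scaling. Medians were 0.27 and 0.26, beside -0.00338 over all tested genes. The smallest p belonged to F7 (0.58, limma adjusted p = 1.56e-05), Kng1 (0.69, limma adjusted p = 3.9e-05) and Hrg (0.68, limma adjusted p = 9.54e-05). Beside the knockout-labelled ethanol values given above, in wild-type ethanol livers F7 had 37.0 to 63.1 (median 42.3) scaled FPKM, Kng1 454.4 to 767.7 (median 596.8) and Hrg 355.5 to 571.3 (median 457.7); each range overlaps that of the knockout-labelled ethanol livers. Of the complement genes C3 differed by 0.77 (limma adjusted p = 4.46e-05), with no overlap between 2493 to 5329 in knockout-labelled and 1510 to 2304 in wild-type ethanol livers. C8g differed by 0.41 (limma adjusted p = 0.000671) and C4b by 0.50 (limma adjusted p = 0.00191). Pros1, not called in the other comparisons averaged over times, was higher by 0.51 (limma adjusted p = 0.00215). C9 was the member that was lower, with a difference of -0.64 (limma adjusted p = 0.0275), and that call was lost in 6 of 48 fits that left out 1 liver. The fibrinogen genes differed by 0.77, 0.68 and 0.66, and without both livers of high acute phase level Fga had 0.41 (limma adjusted p = 0.174), Fgb 0.30 and Fgg 0.31, none of them called.

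Time of day was called for 17 of 22 coagulation genes and 13 of 22 complement genes in knockout-labelled ethanol livers, where 38.2% of tested genes were called. In knockout-labelled controls 1 coagulation gene and 0 complement genes were called (12.7% of tested genes; 5 and 2 had an unadjusted p under 0.05). In wild-type ethanol livers 2 and 2 were called (20.3%), and in wild-type controls 0 and 3 (8.35%; 7 and 9 had an unadjusted p under 0.05). On the deposited FPKM 12 coagulation and 7 complement calls were made over the 4 arms together, against 20 and 18. The difference in time pattern between arms was not tested. In knockout-labelled ethanol livers 15 of the 17 and 12 of the 13 called genes had their lowest mean at 12am. Of the same genes, 11 and 8 had their highest at 12pm. Scale factors in these livers were 0.868, 0.954 and 0.951 at 12am. They were 1.11, 1.30 and 1.14 at 6pm and 1.18, 1.29 and 1.06 at 12pm. Scaling thus lowers values at 12am relative to those times. Counts of this arm alone on the deposited FPKM are not given. Serpinc1 averaged 1342 ± 85.6 scaled FPKM at 6pm, 746.6 ± 78.2 at 12am, 1123 ± 190.3 at 6am and 1308 ± 114.7 at 12pm (SD, n = 3 each), the range of group means being 0.85 on the log2 scale (limma adjusted p = 6.41e-05). Proc averaged 298.4 ± 24.0 at 6pm, 184.6 ± 4.88 at 12am, 242.1 ± 31.8 at 6am and 313.9 ± 33.4 at 12pm (limma adjusted p = 9.65e-05). C8g had 199.5, 199.9 and 208.9 at 6pm, 118.6, 91.2 and 87.4 at 12am, 118.7, 148.4 and 146.7 at 6am, and 201.2, 203.1 and 147.3 at 12pm (limma adjusted p = 0.000121). C1ra averaged 70.0 ± 9.61 at 6pm, 41.8 ± 14.1 at 12am, 51.3 ± 7.62 at 6am and 66.3 ± 5.12 at 12pm (limma adjusted p = 0.00089). Time was not called for Fga, Fgb and Fgg there (limma adjusted p = 0.959, 0.998 and 0.988), nor for C3 (limma adjusted p = 0.702).

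The other arms had few calls, each with its own time. In knockout-labelled controls F9 averaged 73.6 ± 15.3 scaled FPKM at 6pm, 77.1 ± 11.6 at 12am, 67.5 ± 8.82 at 6am and 46.0 ± 4.35 at 12pm (SD, n = 3 each, limma adjusted p = 0.00209). In wild-type ethanol livers F10 averaged 109.3 ± 4.56 at 6pm, 109.2 ± 13.2 at 12am, 122.8 ± 27.1 at 6am and 176.6 ± 6.12 at 12pm (limma adjusted p = 0.00779), and Proz 89.99 ± 11.4, 109.8 ± 11.4, 110.4 ± 31.2 and 139.5 ± 5.26 at the same times (limma adjusted p = 0.028). Hc averaged 102.9 ± 4.21 at 6pm, 135.9 ± 2.33 at 12am, 166.8 ± 18.8 at 6am and 181.0 ± 36.4 at 12pm there (limma adjusted p = 0.00508), and Mbl2 174.9 ± 25.0, 255.5 ± 41.0, 185.3 ± 63.9 and 285.6 ± 6.67 (limma adjusted p = 0.0123). In wild-type controls C3 averaged 1895 ± 712.2 at 6pm, 1184 ± 278.0 at 12am, 1056 ± 131.1 at 6am and 854.7 ± 133.0 at 12pm (limma adjusted p = 0.0284), and C2 (limma adjusted p = 0.0248) and C4bp (limma adjusted p = 0.0301) were also highest at 6pm and lowest at 12pm. The 6pm wild-type controls include the 2 livers with a high acute phase level, whose part in these calls was not tested.

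**Figure D5:**
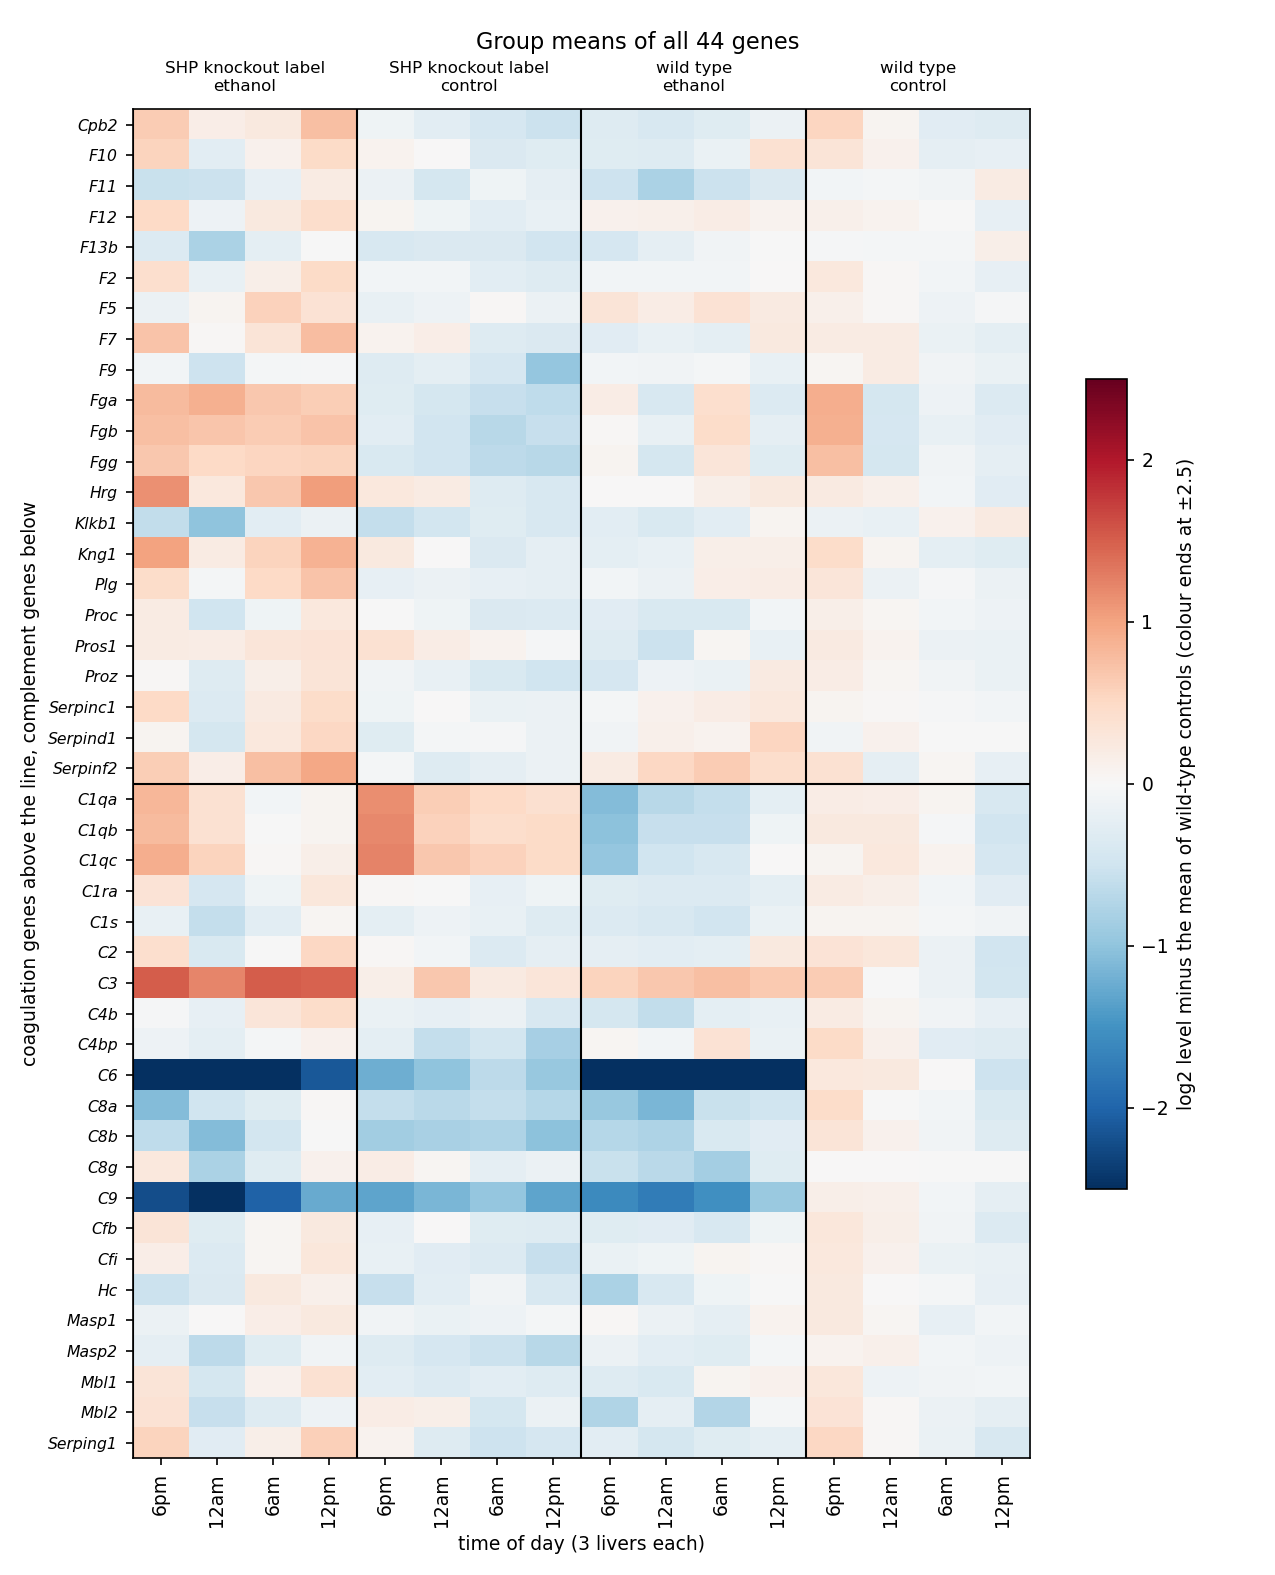
Mean log2 level of the 44 genes (rows, coagulation above the line and complement below) in the 16 groups of 3 livers (columns), each minus the mean of the wild-type controls of that gene; colours end at 2.5 in either direction. Knockout-labelled ethanol livers are red for most coagulation genes except at 12am. C6 and C9 are blue in both ethanol arms and also in knockout-labelled controls.

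The number of members called with ethanol differed between times, though the difference between times was not tested. The share of all tested genes called at 6pm, 12am, 6am and 12pm was 7.09%, 9.23%, 8.31% and 22.4% in the knockout-labelled arm and 18.4%, 9.66%, 12.0% and 7.45% in wild type. In the knockout-labelled arm 8, 0, 7 and 16 coagulation genes were higher at 6pm, 12am, 6am and 12pm, where 3.33%, 3.94%, 4.75% and 12.7% of tested genes were higher, and 1 was lower, Proc at 12am (-0.39, limma adjusted p = 0.044). At 12pm F9 rose by 0.94, F7 by 1.13 and Hrg by 1.45. In wild type 0, 1, 1 and 2 were higher (9.75%, 5.45%, 7.34% and 4.41% of tested genes) and 4, 1, 0 and 0 were lower (8.65%, 4.21%, 4.66% and 3.04%). Complement genes were lower in wild type for 12, 8, 4 and 1 of 22 at the 4 times, and higher for 0, 0, 2 and 2. The wild-type controls of 6pm include the 2 livers with a high acute phase level, whose part in the 6pm counts was not tested. In the knockout-labelled arm 1, 0, 1 and 11 complement genes were higher and 1, 5, 1 and 1 were lower, where 3.76%, 5.29%, 3.56% and 9.69% of tested genes were lower. Over the 8 comparisons 35 coagulation calls were higher and 6 lower, against 19 and 7 on the deposited FPKM, and 17 complement calls were higher and 33 lower, against 7 and 28. C6 was lower at each time in both arms, from -1.17 at 12pm in the knockout-labelled arm to -3.61 at 12am in wild type. C3 rose at 6pm, 6am and 12pm in the knockout-labelled arm (1.37, 1.30 and 1.16) and at 6am and 12pm in wild type (0.91 and 1.11). Cfi (0.84), Masp2 (0.61) and C4bp (0.95) rose at 12pm in knockout-labelled livers. Scale factors in that arm at 12pm were 1.18, 1.29 and 1.06 with ethanol and 0.875, 0.807 and 0.827 in controls. At 12am they were 0.868, 0.954 and 0.951 with ethanol and 0.893, 0.918 and 1.01 in controls. Scaling thus raises every ethanol change at 12pm there. Counts at single times on the deposited FPKM are not given.

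Further genes of both systems, outside the 44, were also counted. With ethanol 31.6% of all tested genes were called in the knockout-labelled arm (16.8% higher, 14.8% lower). In wild type the share was 30.3% (16.6% higher, 13.7% lower). Of 30 further coagulation genes 26 were tested; with ethanol 8 rose and 5 fell in the knockout-labelled arm, and 7 rose and 5 fell in wild type, with medians of 0.02 and 0.01. In the knockout-labelled arm Kng2 rose by 0.78 and Vkorc1, the vitamin K epoxide reductase, by 0.47, and Serpine2, a protease inhibitor, and F2r, the thrombin receptor, fell by 0.44 and 0.32. In wild type Mcfd2, which carries factors V and VIII out of the endoplasmic reticulum, rose by 0.50 and Thbd, thrombomodulin, by 0.71, and Serpine2 and Tfpi2, an inhibitor of serine proteases, fell by 0.81 and 0.60. Of 33 further complement genes 29 were tested; 6 rose and 5 fell in the knockout-labelled arm, and 2 rose and 11 fell in wild type, with medians of 0.02 and -0.21. C1rl rose by 0.42 in the knockout-labelled arm, where Itgax, an integrin chain of complement receptor 4, and Colec10, a collectin, fell by 0.90 and 0.60. In wild type C1qbp rose by 0.30 and Cr1l by 0.14, and Colec10 and Cd59b, a membrane inhibitor of the pore, fell by 0.78 and 0.60.

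Of 16 regulators of hepatocyte secretory genes, 7 rose and 1 fell with ethanol in the knockout-labelled arm, and 1 rose and 1 fell in wild type. The shares of all tested genes called were 31.6% and 30.3%. In the knockout-labelled arm Stat3, which carries the interleukin 6 signal, rose by 0.51 and Hnf4a by 0.38 (limma adjusted p = 0.000177 and 0.000932), and Foxa1 fell by 0.28. Socs3, a target and inhibitor of STAT3, rose there by 0.83 (limma adjusted p = 0.014), with 3.04 to 18.5 (median 4.46) scaled FPKM in ethanol livers and 1.17 to 7.18 (median 2.96) in controls. In wild type Il6ra, the interleukin 6 receptor, rose by 0.46 and Cebpa fell by 0.36; Hnf4a had 0.20 and Socs3 -0.15, neither called. None of the 16 differed between labels in its ethanol effect by limma, while 4 had an unadjusted p under 0.05.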

How the data were processed

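The 48 liver libraries were poly(A)-selected and unstranded (TruSeq v2, 50-cycle single reads), per the labels' protocols. The authors deposited FPKM per gene; GRCm38 and Novoalign are named in the submitters' processing notes, and the sources used here do not give the annotation or the counting rule. Group and replicate were read from sample titles, because the treatment tag differs from the title in 24 libraries. Whole reads were recovered from the FPKM steps for 15041 of 15041 genes (100% of values), with 9605636 to 19780144 reads per library; 1 read in a 1 kb gene was worth 0.0505 to 0.104 FPKM, the limit of precision for low genes. Deposited FPKM were multiplied by a scale factor per library (0.807 to 1.30) derived from TMM normalization. The 13765 genes that reached 0.5 FPKM in 3 or more libraries were tested with limma 3.58.1 in R 4.3.3 on log2(scaled FPKM + 0.5), in 1 fit of 16 group means with p-values adjusted by Benjamini-Hochberg. A fold change on this scale understates changes of low genes. The labels give 3 mice per group, and the main fit did not pair samples by replicate number. The fit was tested on simulated data. All 44 members are described, and of the other lists the 2 genes with the smallest p in each direction are named for the ethanol comparisons, apart from 1 that is not reported here; Socs3 and the serum amyloid genes were named after their values were seen. The members and lists were chosen with earlier results of these data known. Alternatives were the pseudocount, no filter, FPKM as deposited, limma-voom on the recovered reads, the replicate block, each liver left out, and, chosen after seeing the data, the livers of high acute phase level left out.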

Additional observations from a re-analysis of the deposited data

Results flagged for a closer look

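The results below stand here because the effect of ethanol differed between knockout-labelled and wild-type livers by the test of that difference (limma adjusted p under 0.05, knockout label minus wild type, log2). Of the coagulation genes, the fibrinogen genes differed by 1.26 (Fga), 1.18 (Fgb) and 1.22 (Fgg). In controls they had -0.56 to -0.49 between labels, not called. The zymogens F2, F7, F9 and F10 differed by 0.44, 0.69, 0.42 and 0.47, and Kng1 by 0.78. The anticoagulants Proc and Proz differed by 0.45 and 0.46, and Plg, Cpb2 and Hrg by 0.57, 1.07 and 0.74.

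Of the complement genes, C6 differed by 1.13, with a fall in both labels. C8a, C8b, C8g and Hc differed by 0.96, 0.86, 0.45 and 0.54. C6, C8a, C8b and Hc were lower in knockout-labelled controls and were not called between labels among ethanol livers. C4b differed by 0.73, Cfb by 0.55, C1ra by 0.40, Masp2 by 0.36, Mbl1 by 0.52, Cfi by 0.42 and Serping1 by 0.86. The Mbl1 difference was lost in 25 of 48 fits that left out 1 liver.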

How the results depend on the processing

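Of 114 called single-gene results, 114 held with a pseudocount of 0.1 or 1 and with limma-voom on the recovered reads, and 113 without the low-value filter, where C3 between labels in controls had limma adjusted p = 0.0502. With the replicate block 113 held, and the same C3 result had limma adjusted p = 0.0509. Deviations of same-numbered libraries correlated by -0.0017 on average, and those of differently numbered libraries by 0.0014. Of 48 libraries, 23 correlated best with their own number among the 3, and whether that exceeds chance was not tested. With FPKM as deposited 81 held, 31 were lost and 2 turned sign. These were Proc (-0.0821) and Masp2 (-0.0798) with ethanol in the knockout-labelled arm. F13b, not called there with scaling and so not among the 114, also turned sign (-0.20) and was called lower. The same setting gave 3 coagulation calls between labels in controls, 26 over the 8 comparisons by time and 12 for time of day, and 6 complement calls for the difference of ethanol effects and 7 for time of day; the cause was not tested. Leaving out both knockout-labelled ethanol livers of high acute phase level lost 12 results and gave 10 coagulation calls between labels in controls. Leaving out each liver in turn, 94 results were lost in no fit, 20 in at least 1, and 0 reversed. Coagulation calls then ranged from 16 to 18 (ethanol, knockout label), 4 to 5 (ethanol, wild type), 11 to 15 (difference), 5 to 9 (controls), 9 to 13 (ethanol livers), 33 to 48 (by time) and 15 to 22 (time of day). Complement calls ranged from 8 to 14, 13 to 16, 11 to 14, 10 to 16, 9 to 12, 42 to 59 and 13 to 23 in the same order. With 3 livers a group, effects at single times are less certain than means over 4 times.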
